A study of Mus musculus with 2 samples.

Results

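Small nucleolar RNAs carrying a Snora or Snord name were examined in the nucleoplasm of mouse macrophages. Members were all genes whose name begins with Snora or Snord and whose transcript biotype is snoRNA, which gave 140 of 55536 annotated genes, 98 Snord and 42 Snora. A further 1367 snoRNA genes with other names were kept apart for reference, and Snord43 was left out because its biotype is miRNA. Total RNA depleted of ribosomal RNA was sequenced from 2 libraries of 1 group: C57BL/6J bone-marrow-derived macrophages, phagocytes grown from marrow progenitors. The cells had received lipid A, the TLR4-activating part of lipopolysaccharide, at 100 ng/ml for 12 h, a washout of 12 h, and the same dose for 25 min. No untreated cells and no other fraction were analysed here, so no value below is a response to lipid A. The labels name the fraction nucleoplasmic in one field and nucleus in another, and give sex and age as not collected. A size range of 250 to 400 is listed with no unit. Replicate 1 started from 500 ng and replicate 2 from 1 ug of RNA, so replicate and starting amount cannot be told apart. Both libraries carry the same donor entry, and the spread between them may be technical.

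Small nucleolar RNAs guide the chemical modification of ribosomal and spliceosomal RNA. Box C/D RNAs, named Snord, pair with a target and place 2'-O-methyl groups through the methyltransferase fibrillarin, and box H/ACA RNAs, named Snora, guide pseudouridylation by dyskerin. A few, among them Snord118, Snord22, the Snord14 family and Snora73, are needed for cleavage of the ribosomal RNA precursor rather than, or as well as, for its modification. In mammals most are cut from introns of host genes, often genes for ribosomal proteins or translation factors or non-coding Snhg genes, and the mature RNAs gather in nucleoli.

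The sequences show how the 2 families differ in length and ends. All are annotated transcript sequences of GENCODE M21 on GRCm38, written 5' to 3'. The first set holds the C/D box members on which the count results turn, in order of rising length: Snord104 (chr11:106500993-106501062, plus strand), Snord22 (chr19:8725866-8725991, plus strand), Snord15b (chr7:99479563-99479707, minus strand), Snord15a (chr7:99482785-99482932, minus strand) and Snord17 (chr2:144265979-144266216, minus strand). Capitals mark an exact C box in the first 20 bases, where there is one, and the D box nearest the 3' end.
Snord104: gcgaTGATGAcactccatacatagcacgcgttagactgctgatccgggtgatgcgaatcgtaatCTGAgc
Snord22: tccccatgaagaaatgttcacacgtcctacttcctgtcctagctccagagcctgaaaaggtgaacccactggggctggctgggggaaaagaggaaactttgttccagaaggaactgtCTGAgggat
Snord15b: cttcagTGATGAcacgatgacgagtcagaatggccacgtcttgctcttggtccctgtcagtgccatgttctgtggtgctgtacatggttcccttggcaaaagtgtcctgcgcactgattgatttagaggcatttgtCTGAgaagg
Snord15a: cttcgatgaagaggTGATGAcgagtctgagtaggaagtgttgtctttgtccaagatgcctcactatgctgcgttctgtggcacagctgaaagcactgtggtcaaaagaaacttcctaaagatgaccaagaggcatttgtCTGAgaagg
Snord17: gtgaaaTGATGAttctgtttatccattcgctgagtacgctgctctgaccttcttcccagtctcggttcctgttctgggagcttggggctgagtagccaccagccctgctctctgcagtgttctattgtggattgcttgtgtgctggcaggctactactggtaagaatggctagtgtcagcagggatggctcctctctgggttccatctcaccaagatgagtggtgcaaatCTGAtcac

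The second set holds H/ACA box members with many counts in at least 1 table: Snora31 (chr14:75847905-75848034, plus strand), Snora73a (chr4:132352775-132352979, minus strand) and Snora73b (chr4:132352322-132352526, minus strand). Capitals mark the ACA near the 3' end.
Snora31: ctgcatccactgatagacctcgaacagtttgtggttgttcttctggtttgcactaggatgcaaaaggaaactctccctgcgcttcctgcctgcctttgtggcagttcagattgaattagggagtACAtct
Snora73a: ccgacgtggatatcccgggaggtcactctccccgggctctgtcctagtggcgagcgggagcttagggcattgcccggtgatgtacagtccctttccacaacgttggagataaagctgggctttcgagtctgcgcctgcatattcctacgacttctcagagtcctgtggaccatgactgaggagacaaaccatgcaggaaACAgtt
Snora73b: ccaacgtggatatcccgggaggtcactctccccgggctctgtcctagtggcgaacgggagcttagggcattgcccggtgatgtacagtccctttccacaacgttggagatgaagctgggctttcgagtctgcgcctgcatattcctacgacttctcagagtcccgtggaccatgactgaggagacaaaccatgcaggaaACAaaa

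A last set shows near-identical C/D neighbours whose reads cannot be assigned with certainty: Snord14c (chr9:40803583-40803668, plus strand) and Snord14d (chr9:40803995-40804080, plus strand), with capitals as in the first set.
Snord14c: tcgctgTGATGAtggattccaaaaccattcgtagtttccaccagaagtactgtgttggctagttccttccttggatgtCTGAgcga
Snord14d: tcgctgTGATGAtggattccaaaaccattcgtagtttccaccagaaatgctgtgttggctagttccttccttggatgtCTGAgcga

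The names matched the boxes in most members. The C box, searched as exact TGATGA on the gene strand within the first 20 bases, stood in 70 of 98 Snord genes (71.43%) and in 0 of 42 Snora genes. It stood in 0.1346% of 3715 snRNA, miRNA and misc_RNA transcripts of 60 to 250 bases. The D box, searched as CTGA in the last 20 bases, stood in 96 Snord genes (97.96%), in 5 Snora genes (11.9%) and in 7.08% of those small RNAs. An ACA placed exactly 3 bases before the 3' end was found in 35 Snora genes (83.33%), in 0 Snord genes and in 2.37% of the small RNAs. Within the last 10 bases, ACA stood in 40 Snora genes (95.24%) and 8 Snord genes. The H box, searched as ANANNA in the middle stretch of the transcript, stood in 39 Snora genes (92.86%) and 53 Snord genes (54.08%). It stood in 50.63% of the small RNAs, 81.27% of the other snoRNA genes and 96.75% of protein-coding transcripts. The stretch searched grows with transcript length, and Snora genes are longer than Snord genes, so these shares do not set the families apart. A match is a description of letters, and a missing match says only that these letters were not in the window.

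Snord genes were shorter than Snora genes. Annotated Snord length ran from 64 to 238 bases with a median of 84 and quartiles of 72 and 94. Snora length ran from 121 to 205 bases with a median of 132.5. The snoRNA genes with other names had a median of 128 bases. The shortest Snora gene was thus longer than most Snord genes, and 93 of the 98 Snord genes had at most 119 bases while no Snora gene did. Median GC content was 44.68% in Snord and 48.46% in Snora genes.

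Each library was deposited as a gene table with the column layout of RSEM and a transcript table with that of kallisto, called here the gene table and the kallisto-layout table. The libraries held 20139537 (replicate 1) and 19576439 (replicate 2) expected counts on genes. The kallisto-layout tables held 34708305 and 27969823 estimated counts on genes. The macrophage markers Cd68, Adgre1, Csf1r, Lyz2, Itgam and Mertk were all detected, between 71.9 and 1640 TPM in replicate 1 and between 69.9 and 1365 TPM in replicate 2. The lymphocyte markers Cd3e and Cd79a, the neutrophil markers Ly6g, Mpo and S100a8 and the erythroid marker Hbb-bs had at most 2 expected counts. TPM is a relative transcript abundance, a count divided by the effective length, which is the number of start positions a fragment can take, and scaled to a fixed total.

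The effective length in the gene table separated the families. It was 0 for 94 of 98 Snord genes in replicate 1 and 93 in replicate 2. Among Snora genes it was 0 for 23 of 42 in replicate 1 and for 0 in replicate 2. Over all genes with 1 transcript, the longest entry with an effective length of 0 had 133 bases in replicate 1 and 119 bases in replicate 2. Of the 5424 and 4314 such genes, 16 and 9 had any expected count. Snord17, the longest member, had effective lengths of 37.77 and 63.89 bases. Snora73a and Snora73b, at 205 bases, had 19.41 and 38.67. The kallisto-layout table gave no member a 0: its effective lengths ran from 14.6 to 78.4 bases in replicate 1 and from 14.7 to 83.8 in replicate 2.

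**Figure D1:**
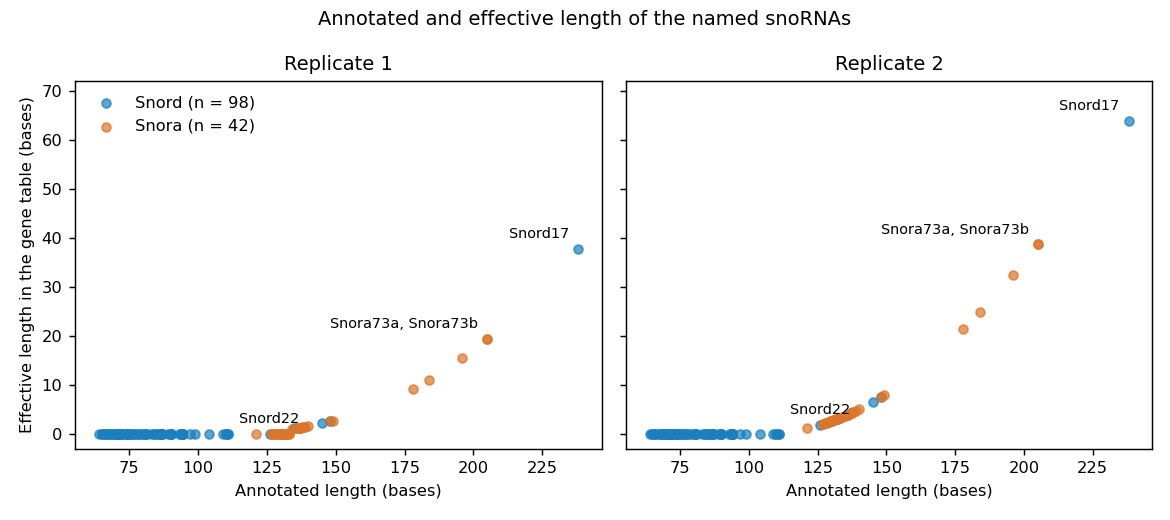
Effective length in the gene table (bases, y) against annotated length (bases, x) for the 98 Snord and 42 Snora genes, with 1 panel per replicate and 1 point per gene. Points lie at 0 up to 133 bases in replicate 1 and up to 119 bases in replicate 2, and Snord17 stands highest in both panels.

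Few members were detected in the gene table. Detection, at least 10 expected counts in both libraries, was reached by 3 Snord genes (3.06%) and 3 Snora genes (7.14%), against 26.3% of all genes, 1.32% of the other snoRNA genes and 11.8% of 51 scaRNA genes, the guides of the Cajal body. In replicate 2 alone 4 Snord and 9 Snora genes had 10 counts, and in replicate 1 alone 3 and 3. The difference in percent detected, Snora minus Snord, was therefore 4.08 percentage points in replicate 1 and 17.3 in replicate 2. Any count at all was given to 4 Snord and 21 Snora genes, and 115 of the 140 members had 0 in both libraries. So did 32592 of all 55536 genes. For members whose effective length is 0, a count of 0 sets no upper limit, since nearly no entry of that length received a count.

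By estimated counts, 17 Snord (17.3%) and 13 Snora genes (31.0%) reached 10 in both libraries of the kallisto-layout table, 30 of 140 members in all (21.4%). Of all genes 40.8% passed the same minimum, as did 7.32% of the other snoRNA genes and 33.3% of the scaRNA genes. Both families thus lay below all genes, and above the other snoRNA genes, in both tables. In the kallisto-layout table, 54 of 140 members had 0 in both libraries, 45 of them Snord. Of all 55536 genes, 22582 had 0 in both libraries there.

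**Figure D2:**
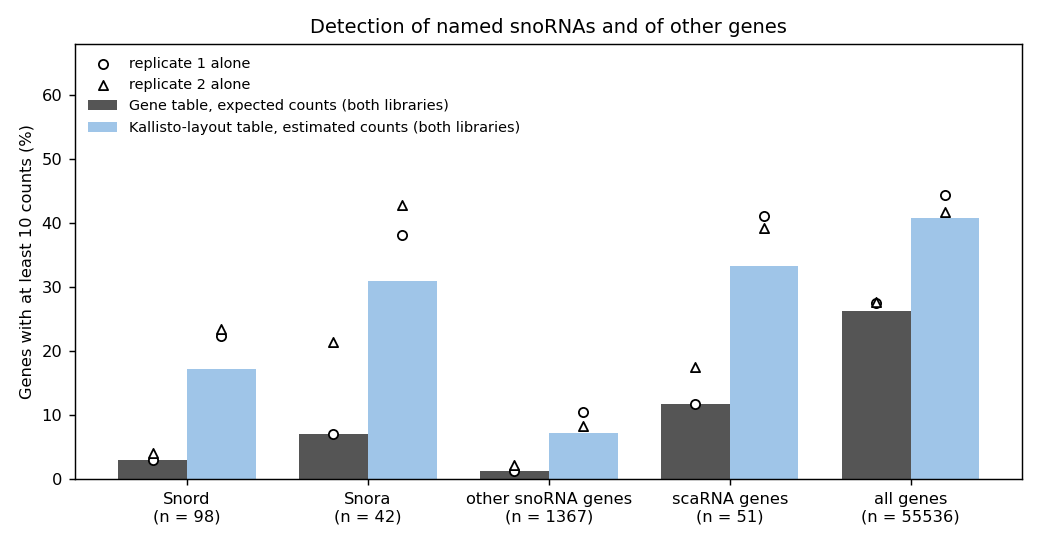
Percentage of genes with at least 10 counts (y) in the gene table (dark bars) and the kallisto-layout table (light bars), for Snord, Snora, other snoRNA, scaRNA and all genes. Bars require both libraries, and circles and triangles give replicate 1 and replicate 2 alone. Both Snord and Snora bars are higher in the kallisto-layout table, at 17.3% and 31.0% against 3.06% and 7.14%.

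Detection was also counted within length bands, beside all genes of 1 transcript in the same band. The 93 Snord genes of at most 119 bases had 0 expected counts in both libraries. In the kallisto-layout table, 10 counts in both libraries were reached by 12 of them (12.9%), against 8.32% of all such genes. From 120 to 133 bases, 0 of 23 Snora genes were detected in the gene table and 4 (17.4%) in the kallisto-layout table, against 0.0901% and 9.28% of all such genes. From 134 to 150 bases, 2 of 3 Snord genes were detected in the gene table and 3 in the other, and 0 and 5 of 14 Snora genes. The shares of all such genes were 1.35% and 10.8%. From 151 to 250 bases, Snord17 was detected in both tables, and 3 and 4 of 5 Snora genes were, against 2.71% and 9.05% of all such genes. Within 134 to 150 bases, where both families had an effective length above 0, the gene table thus detected Snord15a and Snord15b and no Snora gene.

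Among Snord genes, only 4 had any expected count. Snord17 lies in an intron of Snx5 and had 93 expected counts in replicate 1 and 331 in replicate 2. The kallisto-layout table gave it 417 and 521, the only member with at least 100 there in both libraries. Snord22, a C/D RNA required for small-subunit ribosomal RNA processing and hosted by Snhg1, had 3.88 and 703 expected counts and 23.4 and 854 estimated counts. Its 2 libraries therefore lay far apart in both tables. Snord22 also overlaps a same-strand exon and is held whole by 3 other transcripts, so its own level is uncertain.

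Snord15a and Snord15b, methylation guides for the large ribosomal subunit, both lie in Rps3. Snord15a had 23 and 157 expected counts and 59 and 188 estimated counts. Snord15b had 12.8 and 159 expected counts and 21.8 and 170 estimated counts. The pair was higher in replicate 2 in both tables. Their sequences were 65.58% identical over 154 aligned columns. Snord15b also overlaps a retained-intron transcript and is held whole by another transcript, so its own level is uncertain.

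Among Snora genes the Snora73 pair led. Both lie in Snhg3, and the family takes part in cleavage of the ribosomal RNA precursor. Each also overlaps an exon of Gm17300 on the opposite strand, where the strand setting is not given, and Snora73a overlaps a same-strand exon. Snora73a had 42.0 and 688 expected counts, and 93.7 and 752 estimated counts. Snora73b had 44.1 and 662 expected counts, and 58.6 and 720 estimated counts. The pair was 96.59% identical, with 7 differing columns of 205, and its counts were fractional, so the split of reads between the copies is uncertain.

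Snora74a followed with 24.1 and 350 expected counts, and 61.6 and 372 estimated counts. Snora68 had 0.84 and 29.5 expected counts, and 0 and 52.4 estimated counts. Snora81, in Eif4a2, had 0 and 27.6 expected counts, and 2.98 and 35.3 estimated counts. All 3 were higher in replicate 2. Each also overlaps a retained-intron transcript and is held whole by another transcript, so its own level is uncertain.

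Snora78, in Snhg9, had 0 and 20 expected counts and 20 and 97 estimated counts. Snora23, in Ipo7, had 1 and 17 expected counts and 44 and 51 estimated counts. For Snora23 the libraries were close in the kallisto-layout table and apart in the gene table. Snora44, Snora52 and Snora34 had 0 expected counts in replicate 1 and 11.0, 10.8 and 5 in replicate 2.

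The 7 members with the most expected counts (Snord17, Snord22, Snord15a, Snord15b, Snora73a, Snora73b and Snora74a) held 98.09% of all expected counts of members in replicate 1 and 95.43% in replicate 2. In the kallisto-layout table they held 41.02% and 74.97%. In replicate 1 the share of all expected counts that fell on members was 0.00123%, with a 95% interval (Wilson) from 0.00109 to 0.00139%. In replicate 2 it was 0.0163%, with an interval from 0.0158 to 0.0169%. Snord genes held 0.000659% and 0.00689%, and Snora genes 0.000571% and 0.00943%. The intervals cover counting error only.

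Snora31, a pseudouridylation guide in an intron of Tpt1, differed most between the tables among members with at least 100 counts in either table. It had 0 expected counts in both libraries and 148 and 76 estimated counts. Its effective length in the gene table was 0 in replicate 1 and 2.62 in replicate 2. The following members were chosen after their kallisto-layout counts were seen, and all had 0 expected counts in both libraries. Snord89 had 70 and 97 estimated counts, and Snora30 had 82 and 46. Snord71, in an intron of Ap1g1, had 69 and 44. Snord104 had 55 and 57. Snord83b, in Rpl3, had 41 and 47, and Snord53, in Wdr43, had 28 and 40. By TMM-normalised CPM, the count scaled to library depth, of the same table, Snord89 had 1.81 and 3.87 and Snord53 had 0.722 and 1.60, both more than 2-fold apart. With 0.5 CPM added before the ratio, 0 of these 6 passed 2-fold.

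**Figure D3:**
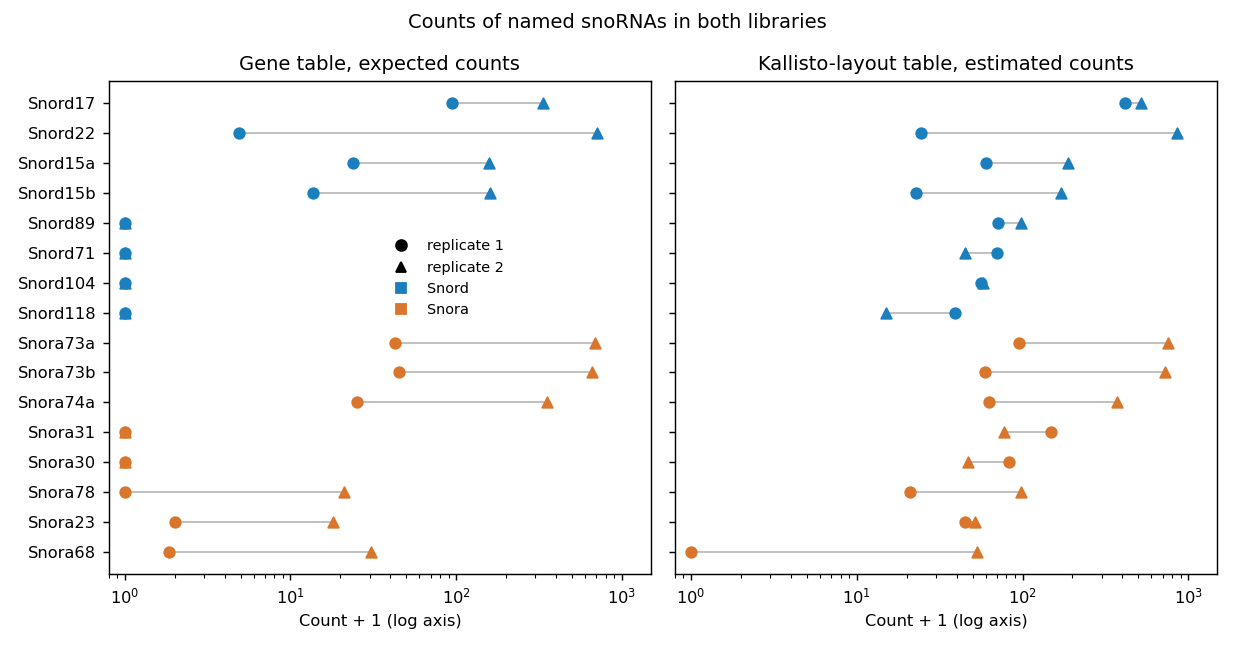
Count plus 1 on a log axis (x) of 16 members (rows) in the gene table (left) and the kallisto-layout table (right). Circles are replicate 1 and triangles replicate 2, blue marks Snord and orange Snora. Snora31, Snora30, Snord89, Snord71, Snord104 and Snord118 sit at 0 counts on the left and between 14 and 148 on the right.

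Further members set for description by name had lower mean counts over both libraries than Snord22 and the Snora73 pair. Snord118, transcribed from its own gene and needed for maturation of the large-subunit RNAs, had 0 expected counts in both libraries and 38 and 14 estimated counts. Snord13, also with its own gene, had 11 and 15 estimated counts. Of the Snord14 family in Hspa8, whose host had 289 and 254 TPM, Snord14c had 0 and 25.3 estimated counts and Snord14d had 0 and 29.3. Snord14e, also in Hspa8, and Snord14a, in Rps13, had 0 in both libraries. Snord14c and Snord14d differ in 2 of 86 bases. Each also overlaps a retained-intron transcript and is held whole by another transcript. Their counts were fractional, so neither the split between the copies nor their joint level is certain.

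The members that share the hosts Rpl13a and Gas5 had at most 13 estimated counts in either library. In Rpl13a, whose C/D RNAs have been linked to metabolic stress, Snord32a had 5 and 13 estimated counts, Snord33 had 0 and 0, Snord34 had 0 and 4, and Snord35a had 0 and 5. The host had 56.4 and 78.1 TPM. In Gas5, Snord47 had 0 and 4.16 estimated counts, and Snord78 and both Snord80 entries had 0. All 4 Gas5 members and Snord33 overlap a same-strand exon. Snord12 had 0 in both libraries. No entry named Snord3a, Snord115, Snord116, Snord44 or Snora48 was found by exact name.

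The 17 genes named Snord116l and a number, copies of a brain-enriched imprinted C/D family, had 0 counts in both libraries and both tables. They hold 4 distinct sequences and all lie in introns of Snhg14. Of the 17, 14 share their sequence with other annotated copies, between which reads cannot be assigned. Snhg14 itself had 13.2 and 5.67 TPM. Snrpn and Rbfox3, set as neuronal markers, had 0 TPM, while Ube3a, which macrophages also express, had 73.0 and 38.3 TPM. The copies make up 17 of the 45 Snord genes at 0 in the kallisto-layout table.

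TPM put the members in a different order from counts. Snord22 had 0 TPM in replicate 1, where its effective length was 0, and 17014 TPM in replicate 2, where its effective length was 1.90 bases. It made up 73.54% of the summed TPM of members in replicate 2. Snord17, with 331 counts in that library, had 238 TPM. Snord15a had 449 and 955 TPM, and Snora73a had 109 and 817. Members as a whole held 0.117% of TPM in replicate 1 and 2.31% in replicate 2.

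Of the 140 members, 133 lie within a gene on the same strand, in 83 host genes. Among these hosts 24 carry Rpl or Rps names, with 32 members, and 13 are Snhg genes, Gas5, Zfas1 or Dancr, with 38 members. By annotation 66 members lie in an intron only, 69 overlap an exon of another transcript on the same strand, and 5 lie outside any same-strand gene. Exon overlap came mostly from retained-intron transcripts, which overlap 47 members. Reads of an unspliced host and of a mature snoRNA cannot be told apart in these tables, and 5 members also overlap an antisense exon where the strand setting is not given.

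Kallisto-layout counts differed between these positions. At least 10 counts in both libraries were reached by 19 of the 66 intron members (28.8%), by 6 of the 69 with exon overlap (8.70%) and by all 5 outside genes, which are Snord104, Snord118, Snord13, Snora17 and Snora57. Without the Snord116l copies the intron share was 38.8% of 49. The difference between members without and with exon overlap was 25.1 percentage points over both libraries, 33.5 in replicate 1 and 17.7 in replicate 2. In the gene table it was -0.122 points, with 3 detected members on each side.

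Zeros lay mostly on the side of exon overlap. In replicate 1, 52 of 69 members with exon overlap had 0 estimated counts, against 26 of 66 intron members, or 9 of 49 without the Snord116l copies. In replicate 2 the counts were 34 of 69, against 23 of 66, or 6 of 49 without the copies. Where another transcript held the whole member, 3 of 70 (4.29%) had 10 counts in both libraries, against 27 of 70 (38.6%) elsewhere. Being held whole was a match of sequence to any transcript that is not a snoRNA, wherever it lies. The members held whole include Snord116l copies, which lie in an intron only and had 0 counts. Values were whole numbers, within 0.01, for 44 of 45 members above 0 without exon overlap in replicate 1, and for 6 of 17 with it. Median host TPM was 25.0 and 24.4 for members with exon overlap and 32.4 and 24.4 for intron members without the copies. Whether the overlap accounts for the difference was not tested.

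Some members of expressed hosts had no counts. Hosts with at least 10 TPM in both libraries held 87 members, of which 26 had 0 estimated counts in both libraries and 20 had at least 10 in both. Of the 48 with exon overlap, 23 had 0 in both, and of the other 39, 3 did. Of the 87, 72 had 0 expected counts in both libraries. Of all 55536 genes, 22582 had 0 estimated counts in both libraries and 32592 had 0 expected counts in both. Where the effective length is 0, a count of 0 sets no upper limit.

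**Figure D4:**
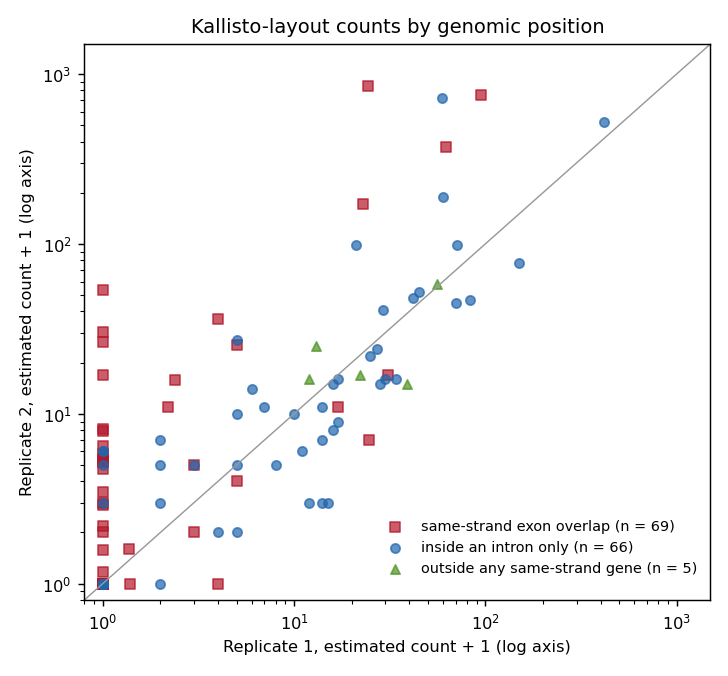
Estimated count plus 1 in replicate 2 (y) against replicate 1 (x), both on log axes, in the kallisto-layout table, with 1 point per member and the line of equal counts. Red squares overlap a same-strand exon (69), blue circles lie in an intron only (66) and green triangles lie outside any same-strand gene (5). The red squares gather at 0 counts in replicate 1, where 52 of them lie.

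All 6 members detected in the gene table were more than 2-fold higher in replicate 2. The log2 ratio of TMM-normalised CPM, replicate 2 over replicate 1 with 0.5 added, was 1.86 for Snord17, 2.46 for Snord15a, 3.0 for Snord15b, 3.52 for Snora74a, 3.77 for Snora73b and 3.88 for Snora73a. Of all genes with 10 expected counts in both libraries, 3.38% were more than 2-fold higher in replicate 2 and 1.47% in replicate 1. Other short RNAs lay on the same side: 27 of 28 detected snRNA genes (median 1.72), 11 of 18 other snoRNA genes (median 2.13) and 5 of 6 scaRNA genes (median 1.55) were more than 2-fold higher in replicate 2. In the gene table the higher level in replicate 2 was thus shared with other short RNAs. In the kallisto-layout table their medians were smaller: 0.24 for 111 snRNA genes, 0.19 for 100 other snoRNA genes and 0.74 for 17 scaRNA genes. There 29, 21 and 7 of them were more than 2-fold higher in replicate 2, and 5, 2 and 0 in replicate 1. By TPM, with its longer effective lengths in replicate 2, Snord17 did not pass 2-fold (log2 ratio 0.94) and the other 5 did. With 1 library on each side these ratios have no replicate check, and no test was made.

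Of the 6 members detected in the gene table, 5 had a smaller ratio in the kallisto-layout table, and Snora73b had 3.86 there against 3.77. Over the 30 members that passed the minimum in the kallisto-layout table the median was 0.38, with 7 more than 2-fold higher in replicate 2 and 0 in replicate 1, against 2.57% and 2.85% of all genes. For the 6 members detected in the gene table the median was 2.83, and for the other 24 it was 0.26. Snord22 had the largest value, 4.97, and Snora78 had 2.11. Snord17 had 0.92, so it was the only member of the 6 that did not pass 2-fold in this table. The log2 ratio was 0.92 for Snord89, 0.53 for Snord104 and -0.29 for Snora31. The effective-length limit, which moved from 133 to 119 bases between libraries, and the starting amount both changed with the replicate. Their part in these ratios was not tested.

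RNA of the genes for proteins that bind the 2 families was detected throughout, and protein was not measured. The genes of all 4 core C/D proteins passed 10 expected counts in both libraries, as did 26.3% of all genes. Fbl, the methyltransferase, had 8.32 ± 0.56 TPM, Nop56 28.9 ± 6.34, Nop58 10.1 ± 0.22 and Snu13 12.3 ± 6.81 TPM (SD, n = 2). The genes of all 4 core H/ACA proteins passed as well. Dkc1, the pseudouridine synthase, had 7.49 ± 0.98 TPM, Nhp2 3.63 ± 0.19, Nop10 1.58 ± 0.81 and Gar1 10.03 ± 8.0 TPM (SD, n = 2). The genes of the 13 listed assembly and export factors all passed. Among them Tgs1, which methylates the cap of independently transcribed snoRNAs, was highest at 49.5 ± 2.57 TPM (SD, n = 2). By TMM-normalised CPM with 0.5 added, 0 of these 21 protein genes differed by more than 2-fold between the libraries. By TPM with nothing added 4 did, so the comparisons differ in the value added as well as in the measure. Gar1 had 15.7 and 4.37 TPM, Snu13 had 17.1 and 7.46, and Nop10 had 2.15 and 1.0. Shq1, an H/ACA assembly factor, had 1.05 and 2.11.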

How the data were processed

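Members and lists were chosen with earlier results of these data known. The deposited expected counts and TPM per gene, in a layout RSEM writes, and the deposited estimated counts per transcript, in a layout kallisto writes, refer to mm10 and GENCODE M21, per the file headers and deposited notes. The authors' effective lengths were used as deposited. The programs used and whether strand was counted: not given in the sources used here. All 140 members have 1 transcript, so both tables were joined by gene identifier. Counts outside genes were 0.282% and 0.0640% in the gene tables.

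Detection meant at least 10 counts in both libraries. Expected counts were rounded to whole numbers for TMM factors (edgeR 4.0.16, R 4.3.3), and ratios used CPM plus 0.5, which shrinks ratios of low genes. Positions and sequences came from GENCODE M21. There was 1 group, so no test between conditions was possible, and no p-value was computed across genes. The ratio step was tested on simulated data. Where the effective length is above 0, a count of 3, the limit a count of 0 allows, was 0.149 and 0.153 CPM.

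Named genes were the 10 Snord and 10 Snora genes with the most expected counts, preset members, the protein list and the 5 members with the largest excess of a table. A ratio rule needing 100 expected counts in both libraries named 0 members. Alternatives were DESeq2 1.42.0 size factors, TPM, other minimums and pseudocounts, leaving out each replicate, exon overlap and identical copies. Some listed marker genes and a host gene are not reported here.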

Additional observations from a re-analysis of the deposited data

How the results depend on the processing

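Of the alternatives computed, 52 values were labelled the same, 28 moved and 1 reversed. A spread was given only for shares of counts, the family difference in percent detected and the position difference. For shares of counts the spread was the SD of the same 2 libraries, so leaving out a replicate could not count as a move. Without replicate 1 and without replicate 2 the shares were 0.00689% and 0.000659% for Snord, and 0.00943% and 0.000571% for Snora. With a minimum of 100 expected counts 0 Snord and 0 Snora genes were detected, and 0 lay past 2-fold, with no ratio left to take a median of. Kallisto-layout counts gave 17 and 13 detected genes, a difference of 13.6 points, and median ratios of 0.49 for Snord and 0.28 for Snora. Without replicate 1 or 2, detected Snora genes ranged from 3 to 9, the family difference from 4.08 to 17.3 points and the position difference from 17.7 to 33.5 points. Without members that overlap an exon, 1 Snora gene was detected, 3 members lay past 2-fold and the Snord ratio was 2.16. Detected members had median lengths of 148 and 205 bases, a difference of 57, and counting identical sequences once gave 80 for Snord and a difference of 52.5. Shares of TPM were 1.01% for Snord and 0.206% for Snora, against 0.00378% and 0.0050% of counts. TPM ratios were 1.09 and 2.78, where the median over all genes was -0.24, a minimum of 1 count gave 2.73 and 3.64, and a pseudocount of 0.1 gave 2.81 and 3.99. The position difference, with alternatives chosen after seeing the data, was 41.7 points at a minimum of 1, 1.41 at a minimum of 100 and -0.122 in the gene table. The cause of these shifts was not tested. No paired analysis was possible because the series has 1 group. Leaving out a replicate gives no ratio, which needs both libraries. Depth limits members under 10 counts, and fractional counts leave near-identical copies uncertain.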
